A study of Mus musculus with 6 samples.

Results

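The 9 genes described here encode secreted proteins that hold back Wnt signaling outside the cell. They are the secreted frizzled-related genes Sfrp1, Sfrp2, Sfrp4, Sfrp5 and Frzb, the Wnt inhibitory factor gene Wif1, and the Dickkopf genes Dkk1, Dkk2 and Dkk3. They were chosen by name and make up 9 of the 36047 genes to which the deposited transcripts were joined. Their RNA was measured in the infarct area of hearts from C57BL6 mice, labelled as 12 weeks old, which was taken 48 h after ischemia/reperfusion. A group of 3 mice received LGK-974 by oral gavage, a small molecule that inhibits Porcupine, and a group of 3 received the vehicle DMSO in citrate buffer. Every mouse of both groups had the injury, and each library comes from 1 mouse, so the values compare treated with untreated infarcts and not infarcts with healthy heart.

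Porcupine attaches a lipid to Wnt proteins in the endoplasmic reticulum, and Wnt proteins without it are not secreted. The antagonists act a step later, on Wnt proteins that have left the cell. Secreted frizzled-related proteins carry a cysteine-rich domain like that of Frizzled receptors and bind Wnt proteins in place of the receptor, and Wif1 binds them through a domain of its own. Dickkopf proteins do not bind Wnt proteins: Dkk1 and Dkk2 occupy the co-receptors Lrp5 and Lrp6, on which canonical signaling through beta-catenin depends, while Dkk3 is a divergent family member that is not known to act on these co-receptors in the same way. Fibroblasts and other stromal cells are a known source of several of these proteins, and canonical signaling itself turns on Dkk1 as a feedback inhibitor. The comparison asks how the RNA of these antagonists stands in infarcts of mice given the Porcupine inhibitor. Wnt secretion in this tissue was not measured in these data.

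The 6 libraries held 41579787 to 80398211 estimated counts each, of which mitochondrial genes took 28.2 to 53.7%. DMSO replicate 1 stood apart. Among 2114 genes of families that heart tissue is not known to express (olfactory, vomeronasal and bitter taste receptors, beta-defensins and keratin-associated proteins), 97.9% had counts in this library, against 46.2 to 77.5% in the other 5, and their median density was 35.3 counts per kb of effective transcript length, against 0 to 10.5. Values without this library are given beside those of the antagonists and of the gene lists. Markers of cardiomyocytes were present in every library, with summed levels of 44513 to 69435 CPM (counts scaled to a common library total with TMM factors). Porcn, the gene of the inhibited enzyme, had a log2 fold change of 0.18 (standard error, SE, 0.396, adjusted p = 0.828 by edgeR's quasi-likelihood test).

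All 9 are annotated as protein-coding genes in GENCODE on GRCm38. On the plus strand, Sfrp1 lies at chr8:23411502-23449632, Sfrp2 at chr3:83766321-83774316, Sfrp4 at chr13:19623104-19632994, Wif1 at chr10:121033960-121100650 and Dkk2 at chr3:132085292-132180304. On the minus strand, Sfrp5 lies at chr19:42197971-42202252, Frzb at chr2:80411970-80447625, Dkk1 at chr19:30545863-30549665 and Dkk3 at chr7:112116017-112159057. The exons of Sfrp2 overlap those of Gm26771, a gene on the other strand, over 347 bases, and the exons of the other 8 genes overlap no annotated exon. Of the sequence words of 31 bases in the transcripts of each gene, 13.7% were shared with another gene for Sfrp2 (in all cases Gm26771), and at most 2.43% for the other 8. The counts of Sfrp2 are therefore the least certain of the family in their assignment.

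RefSeq promoters of GRCm38.p6, which run from 250 bases before to 50 bases after the start site, were matched for 6 of the 9 genes. They were read for the letters that the TCF/LEF factors of canonical Wnt signaling prefer, CTTTGA and CTTTGT, on both strands. Of 32851 promoters of this length, 16.0% held CTTTGA and 18.7% held CTTTGT. The windows of Sfrp2, Sfrp5 and Wif1 held neither, that of Dkk2 held CTTTGT once, 80 bases before the start site, and that of Frzb held CTTTGA once, 95 bases before it on the opposite strand. The window of Dkk1 held CTTTGA at 117 bases before the start site and again at 174 bases on the opposite strand, CTTTGT at 98 bases and TATAAA at 54 bases. TATAAA was also in the window of Dkk2, at 32 bases before the start site, and in that of Wif1, at 232 bases on the opposite strand. The 3 windows below are shown because Frzb was among the antagonists with a separation between the groups, Sfrp2 had the most counts per kb with its short noncoding transcripts included, and Dkk1 is the member known as a target of the pathway. Capitals mark either TCF/LEF motif, or the TATA box motif TATAAA (held by 13.6% of promoters), on either strand.
Frzb (chr2:80447347-80447646, minus strand): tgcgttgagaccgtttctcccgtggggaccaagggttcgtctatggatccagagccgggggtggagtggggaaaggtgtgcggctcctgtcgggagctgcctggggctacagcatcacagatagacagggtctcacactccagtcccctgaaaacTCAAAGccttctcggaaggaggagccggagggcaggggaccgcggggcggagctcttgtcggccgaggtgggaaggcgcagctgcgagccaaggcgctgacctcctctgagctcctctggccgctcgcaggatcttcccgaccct
Sfrp2 (chr3:83766071-83766370, plus strand): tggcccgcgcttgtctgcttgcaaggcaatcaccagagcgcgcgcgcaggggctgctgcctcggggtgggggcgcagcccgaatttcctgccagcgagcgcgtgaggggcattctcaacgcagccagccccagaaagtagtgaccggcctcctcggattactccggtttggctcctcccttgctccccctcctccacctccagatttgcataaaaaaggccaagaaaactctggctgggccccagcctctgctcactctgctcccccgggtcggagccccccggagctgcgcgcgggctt
Dkk1 (chr19:30549447-30549746, minus strand): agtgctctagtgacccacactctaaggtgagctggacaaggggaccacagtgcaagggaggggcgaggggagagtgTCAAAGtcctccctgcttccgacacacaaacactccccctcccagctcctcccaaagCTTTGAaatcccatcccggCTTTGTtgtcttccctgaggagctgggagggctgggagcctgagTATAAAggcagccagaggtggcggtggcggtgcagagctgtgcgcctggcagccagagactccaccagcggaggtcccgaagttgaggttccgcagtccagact
All 3 are rich in G and C, at 64.7% for Frzb, 66.0% for Sfrp2 and 60.7% for Dkk1, where the median of all promoters was 52.7%. The RefSeq start site is that of the GENCODE gene for Sfrp2 and lies 229 bases from it for Frzb and 169 bases for Dkk1. Matches of this kind describe the letters in the window and are no evidence of binding.

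In levels per transcript length (the deposited TPM), 3 secreted frizzled-related genes made up most of the antagonist RNA of the infarct. Sfrp2, Sfrp1 and Frzb together held 87.7 to 92.8% of the summed TPM of the 9 genes in 5 libraries, and 70.2% in DMSO replicate 1. Over the 6 libraries the mean level was 19.7 ± 15.7 TPM for Sfrp2, 7.51 ± 3.94 for Sfrp1 and 4.52 ± 2.95 for Frzb (SD, n = 6), and this order held in 6 of 6 libraries. Dkk2 followed at 1.19 ± 0.694 TPM, Dkk3 at 1.03 ± 0.648, Sfrp4 at 0.538 ± 0.391, Dkk1 at 0.506 ± 0.196, Sfrp5 at 0.234 ± 0.152 and Wif1 at 0.172 ± 0.141 (SD, n = 6). Among these low genes the order was not stable, since Dkk2 lay above Dkk3 in only 2 libraries, Sfrp4 above Dkk1 in 3, and Sfrp5 above Wif1 in 3.

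The first place of Sfrp2 rested on transcripts that are not annotated as coding. Whether the capture probes of the library kit bind these transcripts is not given in the sources used here, so their TPM and the ranks that rest on them are uncertain. Its coding transcript of 2003 bases held 77.6% of its estimated counts, and noncoding transcripts of 600 and 382 bases held 18.5 and 3.84%. TPM divide by length, and on that scale the short transcripts weighed more, at a mean of 8.40 TPM for the 600-base and 3.83 for the 382-base transcript against 7.47 for the coding one. With coding transcripts alone, Sfrp1 (7.51 ± 3.94 TPM; SD, n = 6) and Sfrp2 (7.47 ± 4.68) did not differ beyond their spread, and Sfrp1 was the higher in 3 of 6 libraries. Frzb was at 2.72 ± 1.64 TPM (SD, n = 6) when its noncoding transcript of 830 bases, with 12.8% of its counts, was left out. In Sfrp4 a transcript of 4049 bases held 93.7% of the counts. In Wif1 they were spread over coding transcripts of 2294 and 2183 bases, with 64.8 and 18.9%, and a retained intron with 16.2%. The other 5 genes had 1 transcript each.

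**Figure D1:**
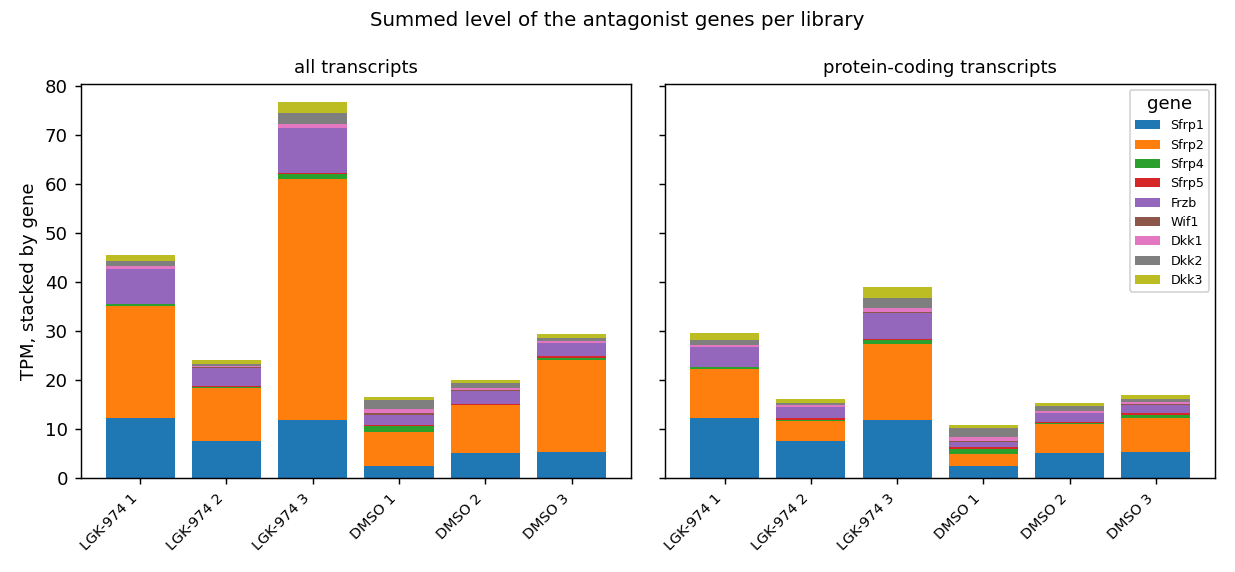
Stacked bars give the TPM of the 9 antagonist genes in each of the 6 libraries, with all transcripts on the left and with coding transcripts alone on the right. Sfrp2, Sfrp1 and Frzb fill most of every bar, and the tall LGK-974 replicate 3 bar on the left, at 76.7 TPM, shrinks to 39.1 TPM when the noncoding transcripts are left out.

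With LGK-974, Sfrp1, Frzb and Dkk3 stood higher than with DMSO in CPM, without overlap of the groups. The mean level of Sfrp1 was 2.02 times, that of Frzb 1.98 times and that of Dkk3 1.75 times the DMSO mean, and in these 3 genes the lowest LGK-974 mouse lay above the highest DMSO mouse. The mean of Sfrp2 was 1.53 times that of DMSO, with overlap between the groups. Sfrp4, Sfrp5, Wif1, Dkk1 and Dkk2 had lower mean CPM with LGK-974, each with its highest CPM in DMSO replicate 1, and none of the 5 was separated between the groups. In TPM, the means of Dkk1 (0.537 against 0.475) and Dkk2 (1.21 against 1.16) were instead the higher with LGK-974. No antagonist had a Benjamini-Hochberg adjusted p under 0.05 in edgeR's quasi-likelihood test over all genes, as was the case for 0% of the 20094 genes tested, and the smallest adjusted p among the 9 was 0.368.

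All 9 genes were tested. At an unadjusted p under 0.05 by edgeR's test, 3 were higher with LGK-974 and 0 lower, where 6.26% of all tested genes were higher and 7.18% lower. The groups did not overlap in 3 of the 9 genes, all higher with LGK-974, where 10.7% of all tested genes lay wholly higher and 7.27% wholly lower. The median log2 fold change of the 9 was −0.33, beside −0.13 over all tested genes, and became 0.40 beside −0.02 when DMSO replicate 1 was left out. DESeq2, the program named in the study's methods, called Sfrp1 and Frzb at an adjusted p under 0.05, where it called 0.985% of 22238 genes as higher. Without DMSO replicate 1, edgeR called none of the 9 and 0.0108% of 18547 genes as higher, 2 in number.

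**Figure D2:**
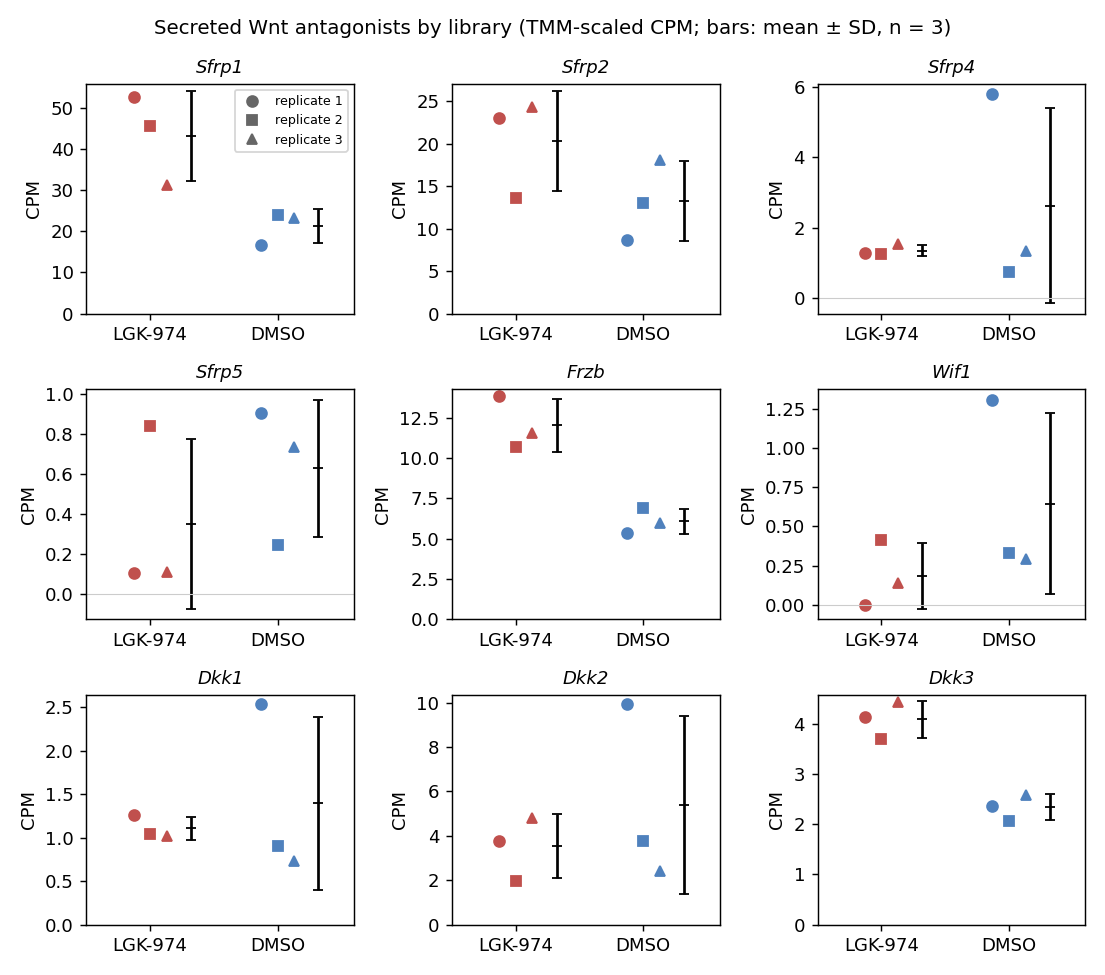
Each panel gives 1 antagonist gene in CPM scaled with TMM factors on a linear axis, with the 3 LGK-974 libraries in red, the 3 DMSO libraries in blue, and the mean and SD of each group as a bar. Sfrp1, Frzb and Dkk3 are separated between the groups, and the DMSO replicate 1 point lies at the top of the panels of Sfrp4, Sfrp5, Wif1, Dkk1 and Dkk2.

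Sfrp1, which binds Wnt proteins through its frizzled-like domain, was at 52.6, 45.5 and 31.3 CPM in LGK-974 replicates 1, 2 and 3. In DMSO replicates 1, 2 and 3 it was at 16.6, 24.1 and 23.3 CPM. The lowest treated mouse thus lay above the highest control mouse, with group means of 43.1 ± 10.8 and 21.3 ± 4.13 CPM (SD, n = 3 each). The log2 fold change was 1.02 (SE 0.237, 95% confidence interval 0.47 to 1.57), with an unadjusted p of 0.00286 and an adjusted p of 0.368 by edgeR's test and an adjusted p of 0.0247 by DESeq2. A two-sided exact permutation test on the means gave p = 0.1, the smallest value that 3 mice against 3 allow. Without DMSO replicate 1, in which Sfrp1 was lowest, the log2 fold change was 0.89 (SE 0.232). Sfrp1 had only 1 transcript among those deposited, a coding one, so its counts cannot show whether transcript choice differed.

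Frzb, also called Sfrp3 and first known from developing cartilage, was higher with LGK-974 too, at a lower level. It was at 13.8, 10.7 and 11.6 CPM in the LGK-974 replicates and at 5.35, 6.91 and 5.97 CPM in the DMSO replicates. The groups were separated by a gap wider than the spread within either, with means of 12.0 ± 1.64 and 6.08 ± 0.783 CPM (SD, n = 3 each). The log2 fold change was 0.98 (SE 0.197, 95% confidence interval 0.53 to 1.44), with an unadjusted p of 0.00116 and an adjusted p of 0.368 by edgeR's test and an adjusted p of 0.0323 by DESeq2. It was 0.92 (SE 0.195) without DMSO replicate 1. The coding transcript alone was also separated between the groups, at 3.86 ± 1.59 TPM (SD, n = 3) under LGK-974 against 1.57 ± 0.540 under DMSO.

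Dkk3, the divergent Dickkopf gene, was at 4.13, 3.69 and 4.43 CPM in the LGK-974 replicates. In the DMSO replicates it was at 2.36, 2.07 and 2.58 CPM, again without overlap, and the means were 4.09 ± 0.371 and 2.34 ± 0.256 CPM (SD, n = 3 each). The log2 fold change was 0.81 (SE 0.275, 95% confidence interval 0.17 to 1.44), with an unadjusted p of 0.0195 by edgeR's test. Its adjusted p was 0.368 by edgeR's test and 0.205 by DESeq2, so that neither program called it. The value hardly moved without DMSO replicate 1, at 0.83 (SE 0.272). Dkk3 was the 1 Dickkopf gene among the 3 separated antagonists.

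Sfrp2, which is known as a stromal product in injured tissue, was at 23.0, 13.5 and 24.3 CPM in the LGK-974 replicates and at 8.67, 13.0 and 18.1 CPM in the DMSO replicates. The groups overlapped because LGK-974 replicate 2 lay below DMSO replicate 3. The means were 20.3 ± 5.87 and 13.2 ± 4.70 CPM (SD, n = 3 each). The log2 fold change was 0.62 (SE 0.316, 95% confidence interval −0.12 to 1.35, adjusted p = 0.384 by edgeR's test). Without DMSO replicate 1 it was 0.40 (SE 0.276). The coding transcript alone had means of 15.4 ± 4.36 CPM under LGK-974 and 10.6 ± 3.60 under DMSO, the same direction as the whole gene. The interval of Sfrp2 includes both no difference and the size seen for Sfrp1, and the difference between these genes was not tested.

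**Figure D3:**
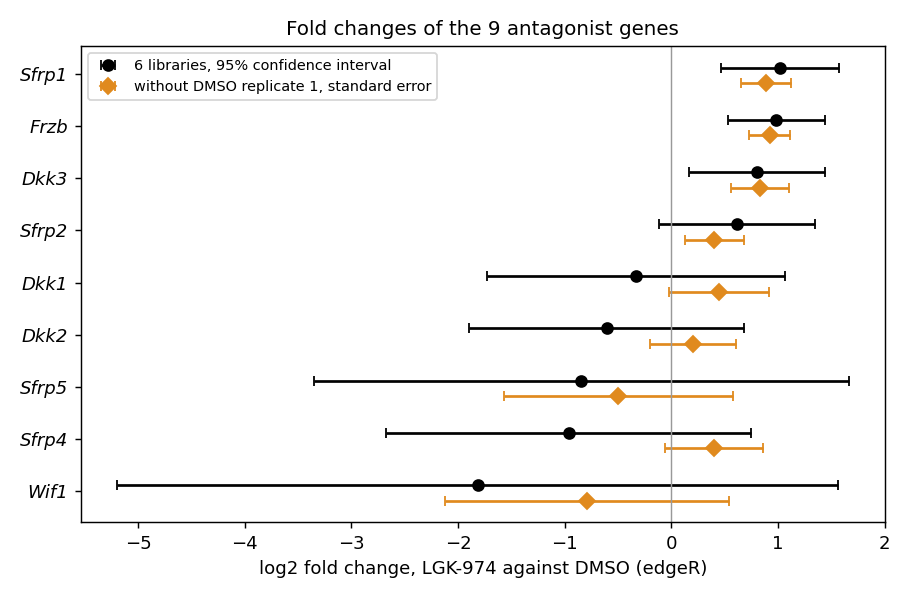
Log2 fold changes of LGK-974 against DMSO by edgeR are given for the 9 genes, as black points with 95% confidence intervals for all 6 libraries and as orange diamonds with standard errors for the 5 libraries without DMSO replicate 1. The intervals of Sfrp1, Frzb and Dkk3 lie above 0 and their diamonds nearly coincide with the points, while Sfrp4, Dkk1 and Dkk2 cross to the other side of 0.

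The low antagonists were dominated by 1 library. Dkk2, a ligand of the Lrp co-receptors, was at 3.78, 1.98 and 4.82 CPM in the LGK-974 replicates and at 9.93, 3.79 and 2.43 CPM in the DMSO replicates. The DMSO replicate 1 value was the one outside the range of the treated mice. The log2 fold change was −0.61 (SE 0.556, 95% confidence interval −1.90 to 0.68, adjusted p = 0.585 by edgeR's test) and turned to 0.20 (SE 0.399) without that library.

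Sfrp4, a further Wnt-binding frizzled-related gene, was at 1.27, 1.23 and 1.52 CPM in the LGK-974 replicates and at 5.81, 0.724 and 1.33 CPM in the DMSO replicates. Its log2 fold change of −0.96 (SE 0.739) became 0.40 (SE 0.464) without DMSO replicate 1. Dkk1, the feedback inhibitor, was at 1.26, 1.05 and 1.02 CPM in the LGK-974 replicates and at 2.54, 0.910 and 0.737 CPM in the DMSO replicates. Its log2 fold change of −0.33 (SE 0.603, 95% confidence interval −1.73 to 1.07) became 0.45 (SE 0.470) without DMSO replicate 1. In both genes the other DMSO mice lay near the treated mice, and Dkk1 in all 3 treated mice was above DMSO replicates 2 and 3.

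Sfrp5 and Wif1 were at the limit of what was measured. Sfrp5, which is known from adipose tissue, had 9, 45 and 7 counts in the LGK-974 replicates and 36, 12 and 30 in the DMSO replicates. Wif1, the Wnt-binding gene outside the frizzled-related family, had 0, 22 and 9 counts in the LGK-974 replicates and 52, 16 and 12 in the DMSO replicates, and the 0 in LGK-974 replicate 1 allows a level of up to 0.0353 CPM (3 counts, counting error only). The groups overlapped in both genes, with log2 fold changes of −0.84 (SE 1.08) for Sfrp5 and −1.81 (SE 1.46) for Wif1. Single libraries moved these values. Without DMSO replicate 1 they were −0.50 and −0.79, and without LGK-974 replicate 2 they were −2.45 and −3.09. Sfrp5 was at −0.43 without LGK-974 replicate 1 and at −0.37 without LGK-974 replicate 3. Their 95% confidence intervals, −3.35 to 1.66 and −5.19 to 1.57, leave a large change in either direction possible, and no difference was detectable at this depth.

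The densities of the low antagonists were set beside those of the gene families not known in the heart. Sfrp1, Sfrp2 and Frzb lay at 105 to 2200 counts per kb, above the median of those families in 6 of 6 libraries. Against the 90th percentile of those families, Sfrp2 alone lay above in 6 libraries. Sfrp1 and Frzb lay above it in 5 and below it in DMSO replicate 1, at 158 and 105 against 213 counts per kb, and Dkk3 lay above it in 3. The density of Sfrp2 divides by a mean effective length of 889 bases, which its short noncoding transcripts lower. Its coding transcript alone had an effective length of 1806 bases in DMSO replicate 1. The place of Sfrp2 above the 90th percentile in that library therefore rests on the noncoding transcripts and is uncertain. Sfrp4, Dkk1 and Dkk2 were above the median in 6 libraries, but above the 90th percentile in 0, 0 and 1. Dkk3 lay below the median in 1 library, DMSO replicate 1, where it had 29.7 counts per kb against 35.3. Sfrp5 and Wif1 were above the median in 3 libraries each. In DMSO replicate 1, Sfrp4 reached 72.7 and Dkk2 113 counts per kb, both above that median. With the median density taken off as background in every library, the log2 fold changes of Sfrp1 and Frzb were 1.02 and 1.05, that of Dkk3 was 1.58 (SE 1.15), that of Dkk1 turned to 0.72, and Sfrp5 and Wif1 no longer had enough counts to be tested.

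**Figure D4:**
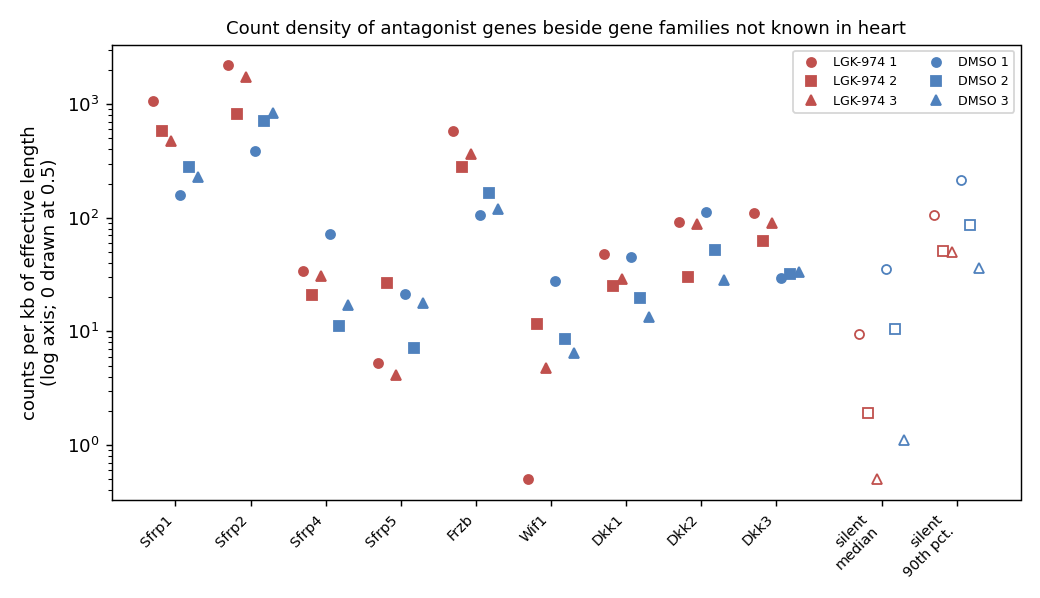
Counts per kb of effective transcript length on a log axis are given for the 9 genes in each library, with LGK-974 in red and DMSO in blue, beside the median and the 90th percentile of 2114 genes of families not known in the heart as open symbols. Sfrp1, Sfrp2 and Frzb stand highest, while Sfrp5 and Wif1 lie in the range of the open median symbols.

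The rest of the Wnt pathway was read in the same fit. Over all tested genes 6.26% were higher and 7.18% lower at an unadjusted p under 0.05. Without DMSO replicate 1, 1320 of 18547 genes were higher and 721 lower. Of 10 further extracellular antagonists, 8 were tested, 0 had an unadjusted p under 0.05, and their median log2 fold change was −0.41, or −0.23 without DMSO replicate 1. Trabd2b, a protease that cuts Wnt proteins, had the smallest unadjusted p among them, 0.0502 by edgeR's test, and was lower in every LGK-974 mouse, at 56.6 ± 17.9 against 86.9 ± 13.7 CPM (SD, n = 3 each), and its unadjusted p was 0.0266 by edgeR's test without that library. Of 19 Wnt ligands, 13 were tested and 0 had an unadjusted p under 0.05, with a median of −0.22 that became 0.01 without DMSO replicate 1. Among the ligands Wnt5b was higher in every LGK-974 mouse, at 1.17 ± 0.138 against 0.488 ± 0.124 CPM (SD, n = 3 each). Its unadjusted p by edgeR's test was 0.0636, and 0.0202 without DMSO replicate 1. Of 18 receptors and co-receptors, 17 were tested, and 1, the Wnt-binding Ryk, was higher at an unadjusted p under 0.05 (log2 fold change 0.37, SE 0.158). Ryk had an unadjusted p of 0.0893 by edgeR's test without DMSO replicate 1, and the receptor Fzd4 was the 1 that passed, lower at −0.39 (SE 0.152). The co-receptors that Dkk1 and Dkk2 occupy, Lrp5 and Lrp6, had log2 fold changes of −0.11 and −0.03 (SEs 0.146 and 0.166).

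Of 14 canonical feedback and target genes, Dkk1 among them, 13 were tested. Nkd2 and Ccnd1 were higher and Znrf3 was lower at an unadjusted p under 0.05, and 11 of the 13 had a lower mean under LGK-974, as did 59.5% of all tested genes. Their median log2 fold change was −0.60. It was −0.14 without DMSO replicate 1, where 12 genes were tested and 6 were higher and 6 lower. Znrf3 then had an unadjusted p of 0.0597 by edgeR's test, and Axin2, a feedback inhibitor of the pathway, was lower at −0.79 (SE 0.309, unadjusted p = 0.0326 by edgeR's test). Nkd2, an intracellular inhibitor of Dishevelled, was at 4.29, 4.63 and 4.87 CPM in the LGK-974 replicates against 2.24, 2.19 and 2.16 CPM in the DMSO replicates. This is a log2 difference of 1.06 (SE 0.257), and the groups did not overlap. Znrf3, a ligase that removes Frizzled receptors, had a log2 fold change of −0.46 (SE 0.178) and lay lower in every treated mouse. None of the genes of these 4 lists passed the adjusted threshold by edgeR's test or DESeq2.

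Markers of several cell types were higher in the same libraries as Sfrp1, Frzb and Dkk3. In bulk tissue, more cells of a type and more RNA per cell cannot be told apart. Of all 20094 tested genes, 8130 were higher with LGK-974. At an unadjusted p under 0.05 by edgeR's test, 6.26% of them were higher and 7.18% lower. Of 14 fibroblast markers, 13 were higher with LGK-974 and 5 of these had an unadjusted p under 0.05 by edgeR's test, with a median log2 fold change of 0.44, and the summed level was 3863 to 5973 CPM with LGK-974 and 2045 to 3147 with DMSO. Of 10 myofibroblast markers 9 were higher, 6 of them at an unadjusted p under 0.05, with sums of 1042 to 2374 against 482 to 724 CPM. All 12 leukocyte markers were higher, 10 at an unadjusted p under 0.05, with sums of 493 to 657 against 231 to 315 CPM. At an adjusted p under 0.05, DESeq2 called 4 fibroblast, 5 myofibroblast and 7 leukocyte markers as higher. It called 0.985% of 22238 genes as higher. Without DMSO replicate 1 the fibroblast median was 0.26 with 10 of 14 higher, and 5 fibroblast, 6 myofibroblast and 11 leukocyte markers were higher at an unadjusted p under 0.05. In that fit 1320 of 18547 tested genes were higher at this threshold and 721 lower. In each of these 3 lists every marker had counts in every library, and the sums of the groups did not overlap. The fibroblast sum leaned on collagen genes. Col3a1, Col1a1 and Col1a2 had means of 1576, 1265 and 627 CPM with LGK-974 and of 717, 580 and 298 CPM with DMSO. The fibroblast markers did not move alike, since Dcn had a log2 fold change of 0.01 (SE 0.316) and Gsn was lower at −0.68 (SE 0.469).

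The other lists were less uniform. The summed epicardial markers were at 63.3 to 76.9 CPM with LGK-974 and 38.5 to 61.3 with DMSO, but 6 of 10 had lower means with LGK-974 (4 of 10 without DMSO replicate 1), and Upk1b was at 0 in DMSO replicate 3. Aldh1a2 held a large part of these sums, at 42.4 ± 1.09 CPM with LGK-974 against 17.8 ± 4.94 with DMSO (SD, n = 3 each). It was the 1 epicardial marker at an unadjusted p under 0.05 by edgeR's test, and the 1 that DESeq2 called (adjusted p = 0.000648). Of 14 cardiomyocyte markers 12 were lower, with overlapping sums, and the 2 that were higher, Nppa and Actc1, were the ones with an unadjusted p under 0.05. DESeq2 called the same 2 at an adjusted p under 0.05. With DMSO replicate 1 left out, Ckm (−0.81, SE 0.266) and Myl3 (−0.70, SE 0.262) were also lower at an unadjusted p under 0.05, and the median of this list went from −0.43 to −0.53. Endothelial (10 genes), mural (8) and Schwann cell markers (6) had 0 members at an unadjusted p under 0.05 and overlapping sums. Of 8 adipocyte markers 3 were tested and the sum was at most 9.58 CPM, reached in DMSO replicate 1, with Adipoq, Cidec, Lep and Ucp1 at 0 in at least 1 library each.

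When libraries were scaled to the mean log2 level of the fibroblast markers in place of TMM factors, the log2 fold change was 0.61 for Sfrp1 (SE 0.205, unadjusted p = 0.0200 by edgeR's test). It was 0.56 for Frzb (SE 0.235, unadjusted p = 0.0469 by edgeR's test), 0.37 for Dkk3 (SE 0.351, unadjusted p = 0.323 by edgeR's test) and 0.26 for Sfrp2 (SE 0.286). The adjusted p was 0.165 for Sfrp1 and 0.177 for Frzb by edgeR's test, so that neither was called. Over all tested genes this scaling has a median log2 fold change of −0.58. At an unadjusted p under 0.05, 124 genes were higher and 5436 lower, where the main fit with TMM factors gave 1257 and 1442. The part of leukocytes and myofibroblasts in these values was not tested.

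**Figure D5:**
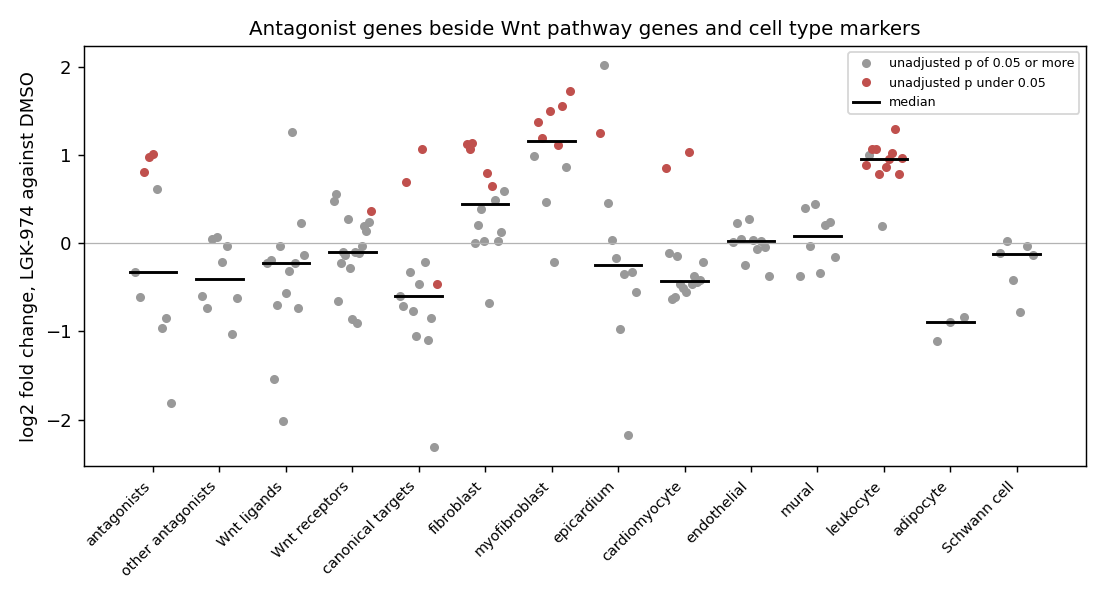
Each point is the log2 fold change of a tested gene, LGK-974 against DMSO by edgeR, in the antagonists, in 4 lists of Wnt pathway genes and in 9 lists of cell type markers, in red at an unadjusted p under 0.05, with the median of each list as a line. Of the antagonists 4 lie above 0 and 5 below, which became 7 and 2 without DMSO replicate 1 (not drawn). The leukocyte markers lie together above 0.

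The genes whose pattern over the 6 libraries was closest to that of the 3 most abundant antagonists were looked up among 17962 protein-coding genes, by the root mean square difference of centred log2 CPM. For Sfrp1 these were Nppa, Cd68 and Myl1, at differences of 0.13, 0.14 and 0.15. For Frzb they were Iqgap2, Akap2 and Cd44, at 0.06, 0.08 and 0.09, where the median gene lay at 0.63. For Sfrp2 they were Erh, Dynlt1b and Fscn1, at 0.14, 0.14 and 0.16. The closest genes of the 3 antagonists were different genes, and their log2 fold changes ranged from 0.46 for Dynlt1b to 1.06 for Cd68. They were picked on the same 6 libraries, so fold changes near those of the antagonists follow from the choice.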

How the data were processed

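The 6 libraries come from infarct tissue of 3 mice per group, grouped by their labels. The study's methods name RiboZero depletion, the TrueSeq RNA Access kit, a HiSeq2000 and Kallisto with an index of GRCm38, whose version is not given in the sources used here. The authors deposited an estimated count, a TPM value and lengths for each of 118489 transcripts per library. Of these, 98.6% were joined to 36047 genes of GENCODE M21 (GRCm38). Each gene was given the rounded sum over its transcripts. CPM were scaled with TMM factors of 0.816 to 1.40. A gene entered the test with 10 or more counts in 3 or more libraries, using edgeR 4.0.16 (quasi-likelihood, treatment as the only factor, Benjamini-Hochberg adjustment, threshold 0.05), and DESeq2 1.42.0 and limma 3.58.1 (voom) were alternatives, in R 4.3.3. The deposited TPM served to compare levels between genes. The edgeR fit was checked on simulated data. Motifs, shared 31-base words and figures came from Python 3.11.15 with pandas 2.3.3 and matplotlib 3.10.9.

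Besides the 9 antagonists, the rule for named genes took up to 3 per list with the smallest p, Porcn, the 3 nearest patterns of each of the 3 members with the highest TPM, and transcripts with at least 10% of a member's counts. Lrp5, Lrp6, Fzd4, Axin2, Myl3, Col1a1, Dcn, Gsn, the 382-base Sfrp2 transcript and markers at 0 were named after their values were seen. The members and lists were chosen with earlier results of these data known. P-values measure the spread between the mice sequenced. DMSO replicate 1 was examined separately after its values were seen.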

Additional observations from a re-analysis of the deposited data

How the results depend on the processing

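Over the alternatives, 163 values of the 9 fold changes kept their direction and their side of the adjusted threshold, 7 turned in direction and 6 passed the threshold. Those that passed were Sfrp1, at 1.05 with DESeq2, 1.15 with no low-count filter, and 0.87 by DESeq2 without DMSO replicate 1, and Frzb, at 1.02, 1.13 and 0.90 under the same settings. Those that turned were Sfrp4, Dkk1 and Dkk2 without DMSO replicate 1 (0.39, 0.43 and 0.19 with DESeq2), and Dkk1 on counts less background, at 0.72. With each library left out in turn, Sfrp4 ranged from −1.43 to 0.40, Dkk1 from −0.58 to 0.45 and Dkk2 from −0.83 to 0.20, while Sfrp1 stayed within 0.84 to 1.27, Frzb within 0.86 to 1.13, Dkk3 within 0.71 to 0.998, Sfrp2 within 0.40 to 1.01, Sfrp5 within −2.45 to −0.37 and Wif1 within −3.09 to −0.79. Over all genes edgeR called 0, and 0 to 2 with a library left out, where DESeq2 called 315, edgeR without a filter 1206 and DESeq2 without DMSO replicate 1 326. Library size alone as the scaling, added after the data were seen like the last of these fits, moved the median of all genes from −0.13 to 0.08. The genes at an unadjusted p under 0.05, 1257 higher and 1442 lower, became 124 and 5436 with the fibroblast marker scaling, 805 and 721 without LGK-974 replicate 1, 1201 and 625 without LGK-974 replicate 2, 636 and 185 without LGK-974 replicate 3, 1320 and 721 without DMSO replicate 1, and 1823 and 2805 without DMSO replicate 3, while DESeq2 gave 1243 and 3234, edgeR with no low-count filter 1398 and 3392, and limma-voom 1266 and 683. The labels give same-numbered mice a common number and do not say whether they shared a batch, which was not tested. Correlations of their deviations were 0.475, −0.0482 and 0.391, with a mean of 0.273, against −0.136 for mice of unlike number. Under the replicate block Sfrp1 was at 1.003 and Frzb at 0.98, with adjusted p of 0.134 and 0.136 by edgeR's test. In that fit 4 antagonists in place of 3 had an unadjusted p under 0.05, and no call changed. On counts less background, and with at least 50 counts in 3 samples, Sfrp5 and Wif1 gave no value.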
